A study of Homo sapiens with 8 samples.

Results

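The proteins of the mitochondrial ribosome were followed in an m6A map of Mel624 cells, an established human melanoma line. The members were the rows of the deposited peak lists whose gene symbol begins with MRPL or MRPS and a number, names given to proteins of the large and of the small subunit. MRPS30 and MRPS18A are exceptions, since both sit in the large subunit, and counts by MRPL and MRPS below follow the symbol. MRPS36 of the lists stands in the gene table of GRCh38 under the symbol KGD4. It was counted with the MRPS genes by its listed name, and whether its protein belongs to the ribosome was not examined. The gene table of GRCh38 holds 78 protein-coding genes of this family, 49 MRPL and 29 MRPS genes, and 60 of them had a row in at least 1 list, out of 10078 genes listed in all. The remaining 18 genes had no row under these symbols.

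The knockdown cells carried a lentiviral short hairpin RNA against FTO (shFTO) and the control cells a lentiviral control hairpin (shNC). Both were selected with puromycin and grown in DMEM with serum without a further treatment, so that every library comes from infected and selected cells of 1 line. Each group had 2 replicates, each with an m6A-IP and an input library, 8 libraries in all. Whether the replicates were separate cultures is not stated, and the p-values below therefore measure only the spread between these libraries. The authors deposited 1 peak list per group, with a log2 enrichment score in each replicate. To form it, reads in the peak were set against the median window of that mRNA, separately in IP and input, and the IP quotient was divided by the input quotient. It describes a place on an mRNA against the rest of that mRNA, and says nothing of the mRNA level. Read counts are not part of the lists, which leaves the depth of each library unknown, and the level of FTO mRNA, which would check the knockdown, cannot be read from them. All 7 melanocyte lineage genes looked up as a check of the label, among them MITF, SOX10 and PMEL, had a peak in both lists.

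The mitochondrial ribosome translates the few mRNAs that mitochondrial DNA still encodes, all of them for subunits of oxidative phosphorylation. Its RNAs are mitochondrial, but its proteins are encoded in the nucleus, made in the cytosol and imported, so their mRNAs pass through the nuclear m6A machinery as other mRNAs do. m6A is laid down by the METTL3 complex in DRACH motifs, of which GGACU is the best known, and is densest around stop codons and in long exons. FTO removes the methyl group from m6A and also from m6Am, the methylated adenosine beside the cap. Antibodies to m6A bind both, so a peak that begins at the first nucleotide of an mRNA may hold either, and the 2 cannot be told apart here.

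GGACU sites of peaks with the highest scores or the widest ratios of the family are shown first, since they fix the places to which the values below refer. With them are 1 site in a 5′UTR and the MRPS25 3′UTR peak site at nt 2033 of the isoform. That site lies in the peak at nt 1811 to 2040 in shFTO, not in the distal MRPS25 peak with the widest ratio. Each line is 25 nt of mRNA written as DNA, 5′ to 3′, with the deposited GGACU in capitals as GGACT. Coordinates are those of hg38, found by matching the deposited position on the isoform to GENCODE release 44 transcripts, and all but 1 of these sites lie in the last exon.
MRPS27 stop codon peak, 3′UTR, exon 12 of 12, minus strand, chr5:72220839-72220863: ccccgtgccaGGACTcagcagtggc
MRPL35 3′UTR peak, upstream site, exon 4 of 4, plus strand, chr2:86212653-86212677: gtagagataaGGACTggcaaccaga
MRPL35 3′UTR peak, downstream site, exon 4 of 4, plus strand, chr2:86212686-86212710: atccaaagatGGACTgaagtgggat
MRPL10 stop codon peak, CDS, exon 5 of 5, minus strand, chr17:47824200-47824224: acactgttccGGACTcgtagccagc
MRPL16 CDS peak, CDS, exon 4 of 4, minus strand, chr11:59806511-59806535: gtgagccgcgGGACTctagagaaga
MRPL3 start codon peak, 5′UTR, exon 1 of 10, minus strand, chr3:131502873-131502897: ggtggcgtggGGACTccctgaaagc
MRPS25 stop codon peak, CDS, exon 4 of 4, minus strand, chr3:15052433-15052457: ccgatgcccaGGACTaaggcccacg
MRPS25 stop codon peak, 3′UTR, exon 4 of 4, minus strand, chr3:15052299-15052323: tgcattaaaaGGACTttacacacct
MRPS25 3′UTR peak, exon 4 of 4, minus strand, chr3:15051034-15051058: tgacagagcaGGACTgaagttttca
MRPS26 stop codon peak, upstream site, CDS, exon 4 of 4, plus strand, chr20:3047784-3047808: aagcagcattGGACTcccggaagaa
MRPS26 stop codon peak, downstream site, CDS, exon 4 of 4, plus strand, chr20:3047850-3047874: cacaacgcagGGACTcctaggggcc

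Beyond the shared GGACU these sequences were not compared, apart from the bases beside the motif given below. Other peaks with high scores held no GGACU, namely the MRPS12 3′UTR, MRPS31 CDS, MRPL49 start codon and MRPS9 start codon peaks. Among peaks with wide ratios, the start codon peaks of MRPL2, MRPL18 and MRPS30 held none either. In all, the peaks of the family held 31 GGACU sites in 27 genes, 3 in the 5′UTR, 14 in the CDS and 14 in the 3′UTR. Of these, 28 sites in 24 genes could be matched to a transcript, 3 genes at the deposited position and 21 with the isoform start shifted. The sites of MRPL1, MRPL4 and MRPS36 were not matched. The base before GGACU was A at 12 of the 28 sites, C at 4, G at 6 and T at 6. The base after it was C at 10 sites, G at 10, T at 5 and A at 3. The site in the MRPS27 peak lay at -3.5 nt from the peak centre in shFTO and -2.5 nt in shNC. Both sites of the MRPL35 peak lay in its downstream part, 43.0 and 76.0 nt past the centre in shFTO and 45.0 and 78.0 nt in shNC.

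In the shFTO list 57 genes of the family had a peak, and in the shNC list 57 also, with 54 in both (90% of the 60 genes, against 86.3% of all 10078 genes listed). Of the MRPL genes, 34 were in the shFTO list and 33 in the shNC list, with 36 in either. Of the MRPS genes, 23 were in the shFTO list and 24 in the shNC list, with 24 in either. The family had 74 peaks in shFTO and 73 in shNC, 41 and 37 of them in MRPL mRNAs and 33 and 36 in MRPS mRNAs. A single peak was the rule. In each list 43 genes, or 75.4%, had 1 peak only, against 46.6% of all genes listed in shFTO and 43.2% of those listed in shNC. Over the family this gives 1.30 peaks per gene in shFTO and 1.28 in shNC, against 1.96 and 2.05 over all genes. The mRNAs are short as well. The MANE Select transcript had a median length of 1414 nt over 59 genes of the family, and 3506 nt over 9109 listed genes.

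The genes with no row were MRPL23, MRPL27, MRPL33, MRPL36, MRPL40, MRPL41, MRPL43, MRPL50, MRPL51, MRPL52, MRPL53, MRPL55, MRPL58, MRPS6, MRPS7, MRPS14, MRPS17 and MRPS33. MRPL23 is a protein of the exit tunnel, and MRPS7 a protein of the head of the small subunit. MRPL58, a peptidyl-tRNA hydrolase built into the large subunit, is listed under its older symbol ICT1, which leaves 17 genes with no row under any symbol. Its start codon peak, at nt 1 to 191 in shFTO and nt 1 to 184 in shNC, scored 1.65 and 1.44 in shFTO, against 1.88 and 1.72 in shNC. Absence of a row may mean that no window passed the thresholds or that the mRNA was hardly expressed, and which of these holds cannot be told from a peak list. The rule also matched 2 pseudogene transcripts, MRPL45P2 and MRPS31P5, which were kept out of all counts. MRPL45P2 scored 2.86 and 2.88 in shFTO, against 2.73 and 2.73 in shNC. MRPS31P5 had 1 peak in common, with scores of 2.93 and 3.16 in shFTO, against 3.20 and 3.36 in shNC, and a further peak in the shFTO list only, at 2.57 and 3.06. Reads of a pseudogene and of its parent gene share sequence, so the peaks of MRPL45 and MRPS31 carry that uncertainty.

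Peaks of the family were placed near the start codon more often than peaks of the lists as a whole. In shFTO 28 of 74 peaks, 37.8%, were labelled start codon (95% Clopper-Pearson interval 26.8% to 49.9%), against 16.8% of all 18551 peaks. In shNC the share was 29 of 73, 39.7% (28.5% to 51.9%), against 16.6% of all 19072 peaks. CDS peaks were fewer, at 13.5% in shFTO and 13.7% in shNC, against 32.1% and 32.7% over all peaks. Stop codon peaks made up 27.0% in shFTO and 28.8% in shNC, against 20% and 19.4% over all peaks. The 3′UTR held 17.6% of the peaks in shFTO and 16.4% in shNC. The 5′UTR held 3 peaks in shFTO and 1 in shNC. Start codon and 5′UTR peaks together made up 41.9% in shFTO and 41.1% in shNC, against 23.4% and 23.1% over all peaks. In mRNAs of cytosolic ribosomal proteins they were 17 of 34 peaks in shFTO and 13 of 32 (40.6%) in shNC, so that a high share at the 5′ end was found in both ribosomal protein families. These shares were not tested against each other, and the intervals cover counting error only. The mRNAs of the family were shorter than those of the lists, as given above, and the part of length in these shares was not tested.

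**Figure D1:**
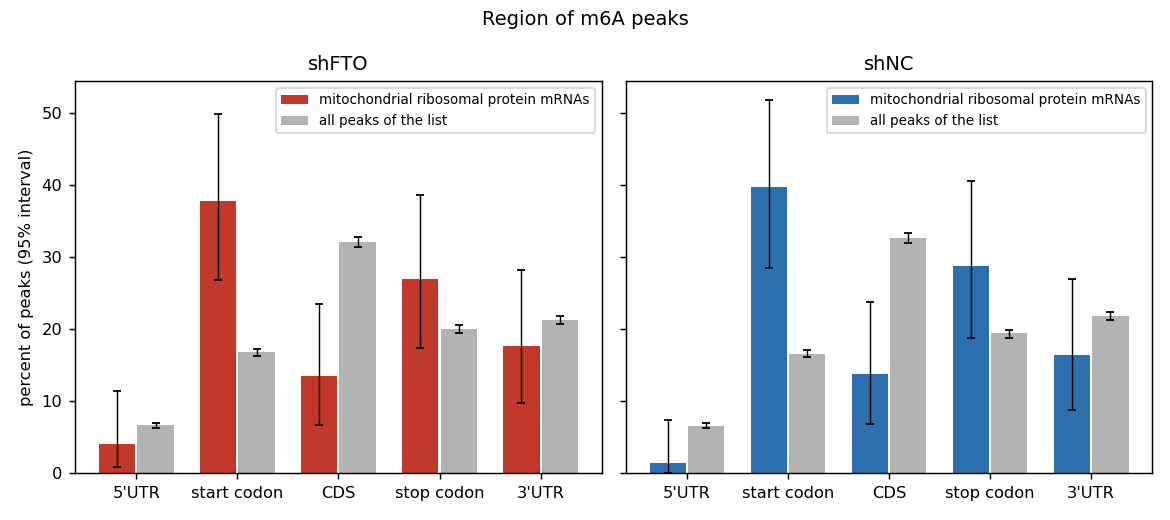
Share of peaks in each region (percent of peaks) for mitochondrial ribosomal protein mRNAs (coloured) and for all peaks of the same list (grey), shFTO on the left and shNC on the right, with 95% Clopper-Pearson intervals; noncoding transcripts, at 3.22% and 2.95% of all peaks, are not drawn. The start codon bars of the family stand at 37.8% and 39.7%, against 16.8% and 16.6% for all peaks, and the CDS bars at 13.5% and 13.7%, against 32.1% and 32.7%.

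Of the peaks of the family, 13 in shFTO and 12 in shNC began at nt 1 of the isoform, 17.6% and 16.4%, against 7.62% and 7.65% of all peaks. Among them were peaks of MRPL1, which forms the L1 stalk, MRPL22, which lines the exit tunnel, and MRPS9, a protein of the small-subunit head. GGACU shares stood close to those of the whole lists. The motif was found in 26 of 74 peaks in shFTO, 35.1% (24.4% to 47.1%), against 38.1% of all peaks, and in 26 of 73 in shNC, 35.6% (24.7% to 47.7%), against 36.3%. The median score of peaks with GGACU was 2.10 in shFTO and 2.20 in shNC, and of peaks without it 1.66 in shFTO and 1.59 in shNC. Over all peaks the medians were 2.76 and 2.77 with GGACU and 2.40 and 2.44 without it. By region, GGACU was present in 9 of 20 stop codon peaks in shFTO and 11 of 21 in shNC, and in 8 of 28 start codon peaks in shFTO and 7 of 29 in shNC. The lists as a whole had it in 1630 of 3713 stop codon peaks in shFTO and 1558 of 3696 in shNC, and in 907 of 3116 start codon peaks in shFTO and 899 of 3163 in shNC.

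Scores of the family were lower than those of the lists as a whole. The median over its peaks was 1.79 in shFTO and 1.68 in shNC, against 2.52 and 2.55 over all peaks. A mean score of at least 3 was reached by 12 peaks in shFTO, 16.2%, and by 9 in shNC, 12.3%, against 36.4% and 36.8% of all peaks. A score under 1 in at least 1 replicate was given for 11 peaks in shFTO, 14.9%, and 7 in shNC, 9.59%, against 4.41% and 3.84%. The cytosolic ribosomal proteins, the nearest family by function, had still fewer and lower peaks. Of 86 such genes, taken by symbol with paralogs included, 32 had a row, 30 in shFTO and 27 in shNC. Whether all 86 are expressed in this line cannot be read from the lists. The median score of their peaks was 1.30 in shFTO and 1.31 in shNC. These levels were not tested against each other. The mRNAs of the family were shorter than those of the lists, and each score is set against the median window of its own mRNA. The part of length in the scores was not tested.

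The highest score of the family was that of MRPS27, a pentatricopeptide repeat protein of the small subunit (chr5:72219403-72320240). Its stop codon peak scored 5.65 and 4.86 in shFTO, against 5.67 and 5.39 in shNC. The groups overlapped, and the log2 ratio of shFTO over shNC was -0.27 (standard error 0.34, adjusted p = 0.976 from limma). A separate 3′UTR peak of MRPS27 scored 2.38 and 1.97 in shFTO, against 2.93 and 2.35 in shNC, a ratio of -0.47, or -0.18 without shNC replicate 1. MRPL35, a large-subunit protein (chr2:86199433-86213794), carried its main peak far from the stop codon, at nt 2461 to 2699 of the isoform in shFTO and nt 2457 to 2699 in shNC. It scored 4.97 and 4.98 in shFTO, against 4.71 and 5.08 in shNC, a log2 ratio of 0.08, and the groups overlapped. The start codon peak of the same mRNA was among the lowest of the family, with 1.09 and 0.95 in shFTO, against 1.11 and 1.65 in shNC.

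MRPS12, a protein of the decoding centre and the counterpart of the bacterial streptomycin-resistance protein, had a 3′UTR peak at 3.46 and 4.08 in shFTO, against 3.73 and 3.19 in shNC. A stop codon peak that directly adjoins it scored 2.27 and 2.69 in shFTO, against 2.23 and 1.90 in shNC, so that there both shFTO libraries lay above both shNC libraries (log2 ratio 0.42, standard error 0.31, and 0.21 without shFTO replicate 2). MRPL10, which anchors the stalk of the large subunit, had a stop codon peak at 3.52 and 3.41 in shFTO, against 3.38 and 3.73 in shNC. The other stalk proteins were lower. MRPL12, the stalk protein that meets the elongation factors, scored 2.44 and 2.54 in shFTO, against 2.81 and 2.20 in shNC, and MRPL11, at the stalk base, 1.98 and 1.97 in shFTO, against 2.10 and 1.87 in shNC. In all 3 of these peaks the groups overlapped, with log2 ratios of -0.09 for MRPL10, -0.01 for MRPL12 and -0.01 for MRPL11.

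The other members among the 8 with the highest best peak were MRPS31, MRPL49, MRPS9 and MRPL16. MRPL49, a large-subunit protein, had a start codon peak at 3.54 and 3.54 in shFTO, against 3.06 and 3.52 in shNC. The start codon peak of MRPS9 began at nt 1 and scored 3.37 and 2.96 in shFTO, against 3.21 and 3.20 in shNC. The MRPS9 libraries overlapped, and those of MRPL49 did not, although its ratio of 0.26 was 0.02 without shNC replicate 1. MRPL16, the counterpart of bacterial L16 beside the tRNA-binding sites, had a CDS peak at 3.42 and 3.28 in shFTO, against 3.0 and 2.84 in shNC. MRPL3, a core protein near the peptidyl transferase centre, scored 2.82 and 3.36 in shFTO, against 2.92 and 2.80 in shNC.

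**Figure D2:**
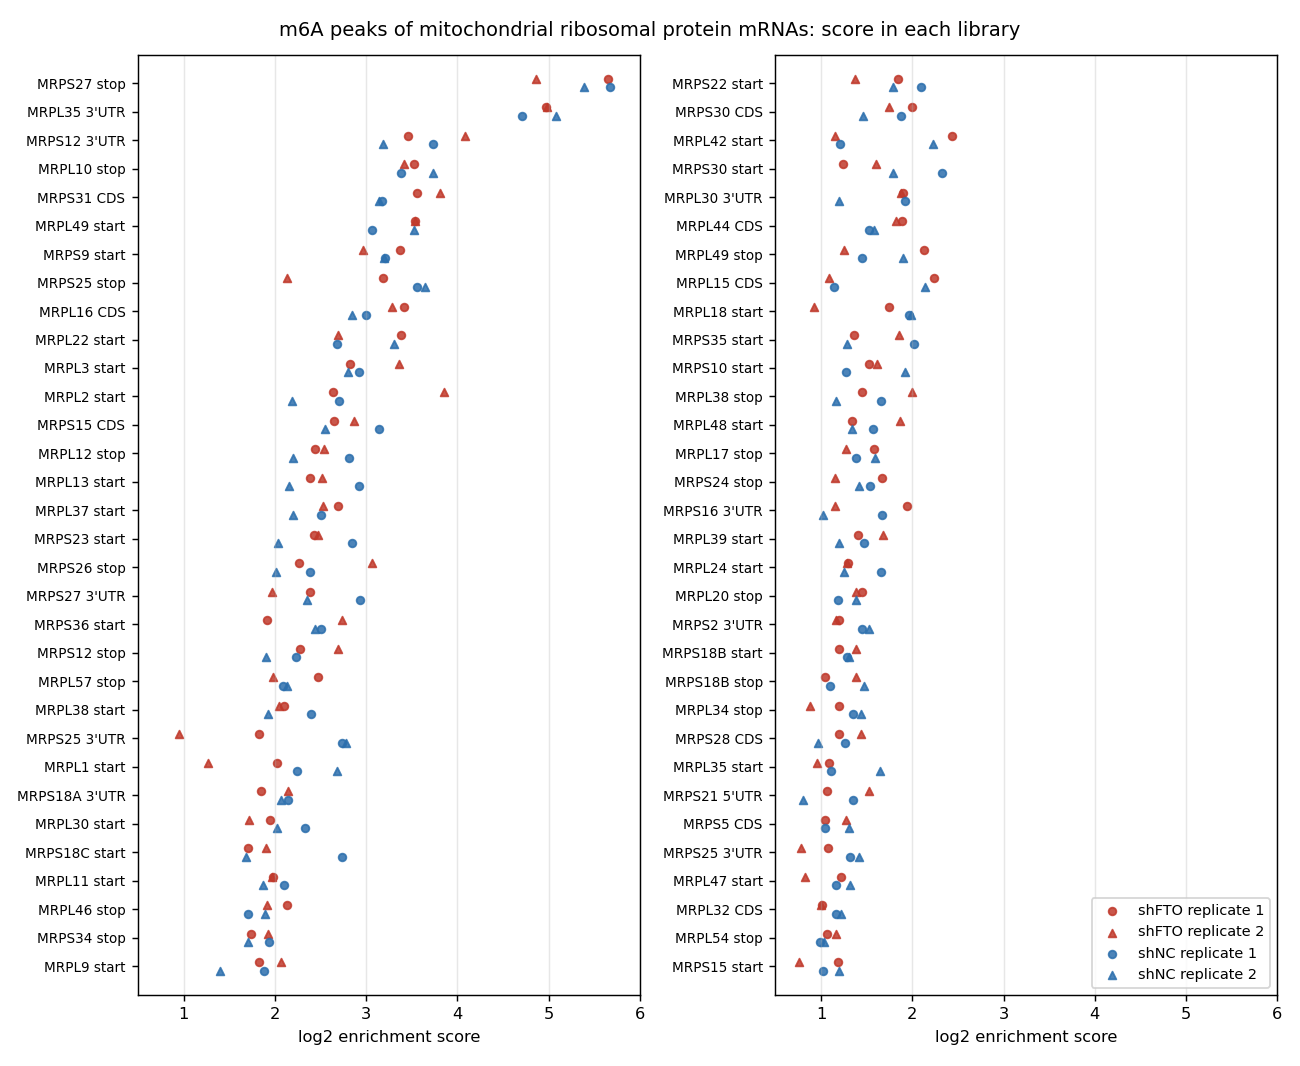
Log2 enrichment score in each library for the 64 tested peaks of mitochondrial ribosomal protein mRNAs, ordered by their mean, with shFTO in red above shNC in blue in each row and replicates 1 and 2 as circles and triangles. The MRPS27 stop codon and MRPL35 3′UTR peaks stand alone near 5, and in 45 of the 64 rows the red and blue points overlap.

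The places of the peaks were shared between the groups. At least 1 nt was shared with a peak of the other list by 69 of the 74 peaks in shFTO (93.2%) and by 67 of the 73 in shNC (91.8%), against 85.8% and 85.4% of all peaks. Of the genes listed in both groups, 0 of 54 lacked an overlapping peak, against 57 of 8693 over all genes (0.656%). Scores could be compared for 64 peaks in 53 genes, those that matched 1 peak to 1 peak between the lists. The test was limma over all 12117 such pairs, 2 replicates against 2, with Benjamini-Hochberg adjustment over all of them. No member passed an adjusted p of 0.05, and neither did any other pair (0% of 12117), with a smallest adjusted p of 0.645 in the family and 0.285 over all pairs.

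The median log2 ratio was -0.01 over the 64 peaks and -0.01 over all pairs, with an SD over peaks of 0.36 and 0.40. Of the family 30 ratios were above 0 and 34 below, and 48.4% of all pairs were above 0. At an unadjusted p under 0.05 there were 0 members higher in shFTO, against 2.30% of all pairs, and 3 lower, against 3.68%. Both shFTO scores lay above both shNC scores in 8 peaks, against 15.7% of all pairs, and below them in 11, against 17.7%. A ratio of 0.5 or more in size was found in 7 peaks, against 17.5% of all pairs. The median standard error was 0.31. In limma it draws on the spread over all pairs, so it is not the spread of a peak's own libraries. Some differences under that size therefore come from peaks whose libraries did not overlap, as given below.

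**Figure D3:**
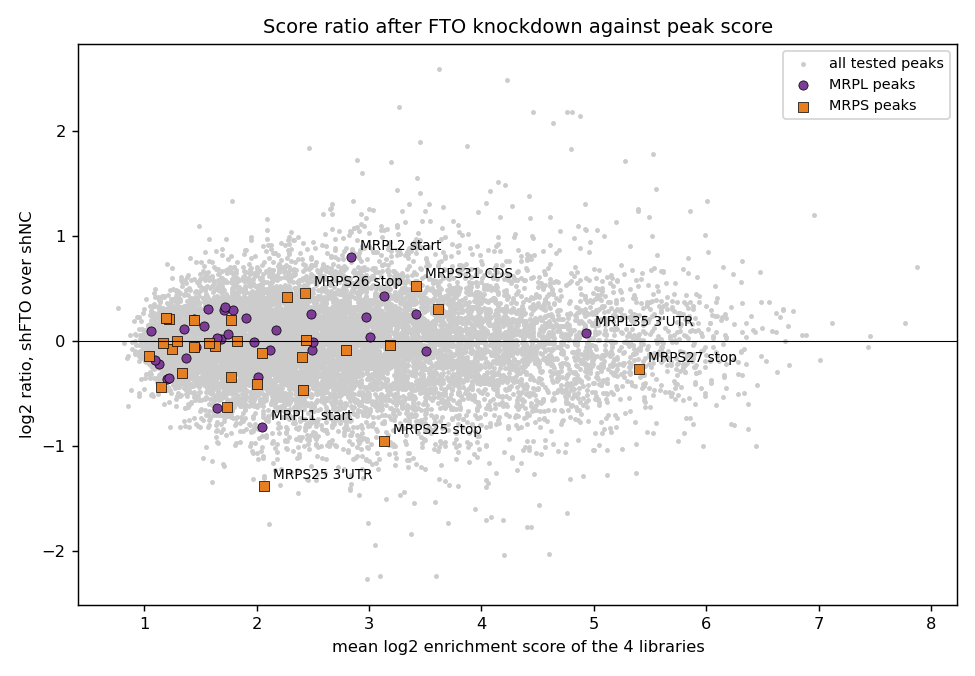
Log2 ratio of shFTO over shNC against the mean log2 enrichment score of the 4 libraries, for all 12117 tested pairs (grey), 34 MRPL peaks (purple circles) and 30 MRPS peaks (orange squares). The family lies mostly at scores under 3 and around a ratio of 0 (median -0.01), with MRPL2 at 0.80 and the MRPS25 3′UTR peak at -1.38 at its edges.

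Ratios of MRPL and MRPS mRNAs, split by symbol, lay on both sides of 0. The 34 MRPL peaks had a median ratio of 0.06, with 20 above 0, and the 30 MRPS peaks a median of -0.05, with 10 above 0. The difference between the 2 groups of symbols was not tested. Among start codon peaks, 9 of 18 MRPL ratios were above 0 and 1 of 10 MRPS ratios, with MRPS ratios from -0.63 to 0.01. The medians were 0.02 for MRPL and -0.09 for MRPS, both small beside the median standard error of 0.31. The lowest of the MRPS ratios was that of MRPS30, which sits in the large subunit. Over all genes 1157 of 2508 start codon ratios were above 0. By region, the medians of the family were -0.04 over 28 start codon peaks, 0.20 over 9 CDS peaks, 0.00 over 17 stop codon peaks and -0.11 over 9 3′UTR peaks. The 12 pairs that began at nt 1 in both lists, where m6Am may be included, had a median of -0.04, with 4 above 0 and 8 below, against -0.02 over 1045 such pairs of all genes.

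MRPS25, a mitochondria-specific protein of the small subunit (chr3:15042251-15065315), had the lowest ratio of the family. Its most distal 3′UTR peak, at nt 3135 to 3373 of the isoform in both lists, scored 1.82 and 0.95 in shFTO, against 2.74 and 2.78 in shNC. Both shFTO libraries lay below both shNC libraries, with a ratio of -1.38 on the log2 scale (standard error 0.35, unadjusted p = 0.00349, adjusted p = 0.645 from limma). Its stop codon peak scored 3.19 and 2.13 in shFTO, against 3.56 and 3.65 in shNC, which gave a ratio of -0.95 (standard error 0.38, limma adjusted p = 0.794). The third peak, in the 3′UTR between them, scored 1.08 and 0.78 in shFTO, against 1.32 and 1.41 in shNC, a log2 ratio of -0.44. All 3 peaks thus had both shFTO libraries below both shNC libraries, and in all 3 shFTO replicate 2 was the lowest library. The 3 scores share 1 median window per library, so they are not 3 independent values. Without shFTO replicate 2 the ratio was -0.94 at the distal peak and -0.42 at the stop codon. Of the GGACU sites of MRPS25 shown above, the distal peak holds none, and the 3′UTR site at nt 768 was given for the shFTO peak only, which ends at nt 771, while the shNC peak ends at nt 768.

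**Figure D4:**
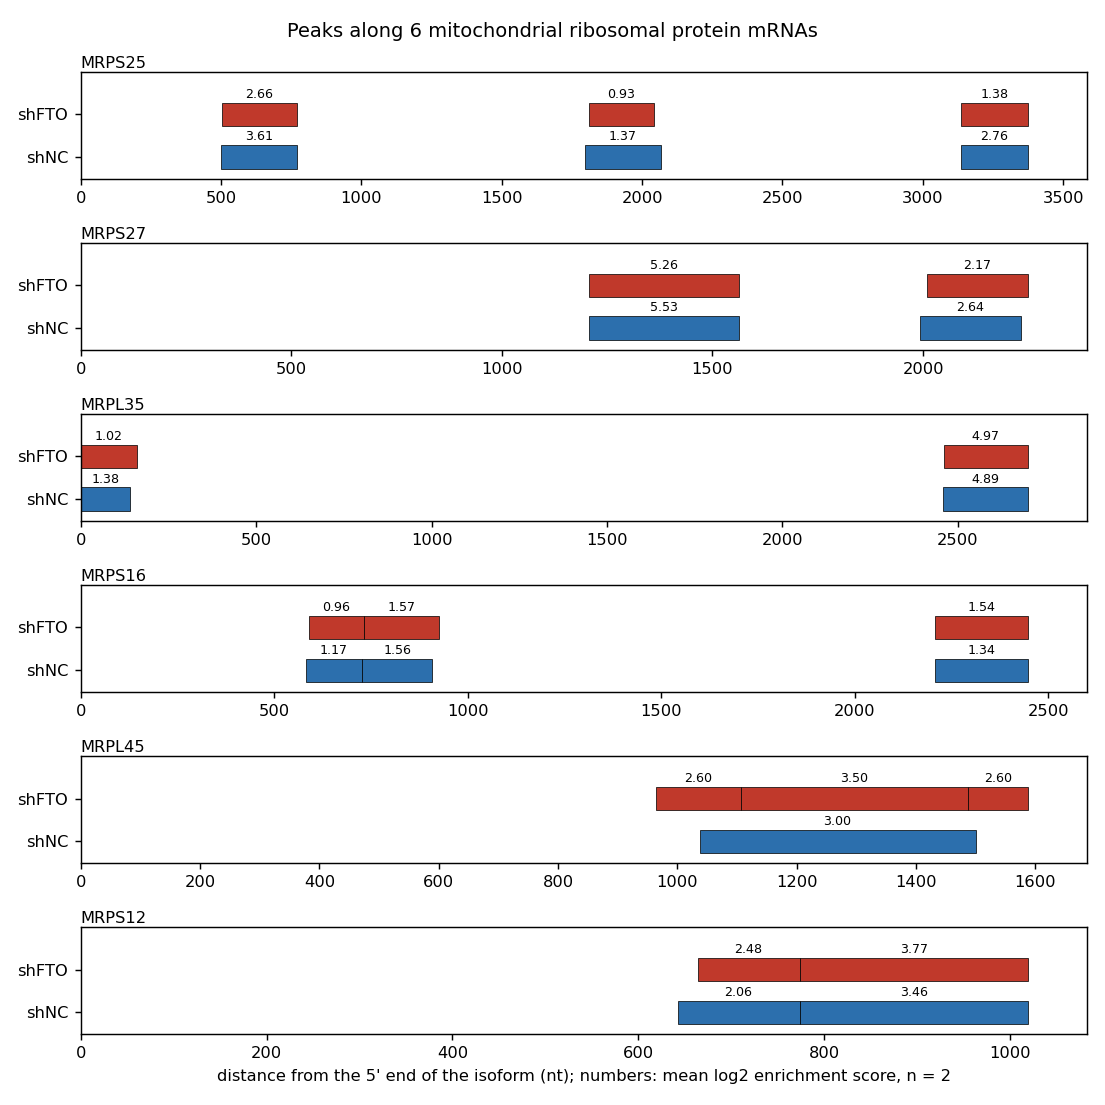
Peaks along 6 mitochondrial ribosomal protein mRNAs (distance from the 5′ end of the isoform in nt), shFTO above shNC in each panel, with the mean log2 enrichment score over 2 replicates written above each peak. The 3 MRPS25 peaks lie at matching places with scores of 2.66, 0.93 and 1.38 in shFTO, against 3.61, 1.37 and 2.76 in shNC, and MRPL45 has 3 adjoining peaks in shFTO over 1 peak in shNC.

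The third member at an unadjusted p under 0.05 was MRPL1, of the L1 stalk, with a peak from nt 1 that is labelled 5′UTR in shFTO and start codon in shNC. It scored 2.02 and 1.27 in shFTO, against 2.24 and 2.68 in shNC, which gave a ratio of -0.82 (standard error 0.35, limma adjusted p = 0.823), or -0.44 without shFTO replicate 2. MRPL18, a protein of the central protuberance, had a start codon peak at 1.74 and 0.92 in shFTO, against 1.96 and 1.98 in shNC. MRPS30, which despite its name sits in the large subunit, had a start codon peak at 1.24 and 1.60 in shFTO, against 2.32 and 1.79 in shNC. Neither gene's libraries overlapped between the groups, at log2 ratios of -0.64 (adjusted p = 0.877 from limma) for MRPL18 and -0.63 (adjusted p = 0.870 from limma) for MRPS30. The MRPL18 ratio was -0.23 without shFTO replicate 2 and -1.05 without shFTO replicate 1, and the MRPS30 ratio -0.36 without shNC replicate 1. The CDS peak of MRPS30 scored 2.0 and 1.74 in shFTO, against 1.88 and 1.46 in shNC. There the groups overlapped, and the ratio of 0.20 had the opposite sign but was under its standard error of 0.30.

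At the other end, MRPL2, a core protein near the peptidyl transferase centre (chr6:43054029-43059863), had a start codon peak at 2.64 and 3.85 in shFTO, against 2.70 and 2.19 in shNC. The groups overlapped, and the ratio of 0.80 (standard error 0.42, limma adjusted p = 0.877) rested on shFTO replicate 2, since it was 0.20 without it. MRPS31, a mitochondria-specific small-subunit protein (chr13:40729128-40771190), had a CDS peak at 3.56 and 3.81 in shFTO, against 3.17 and 3.14 in shNC, with no overlap and a ratio of 0.53 (standard error 0.29, limma adjusted p = 0.878). MRPS26, whose stop codon peak holds 2 GGACU sites, scored 2.26 and 3.06 in shFTO, against 2.38 and 2.01 in shNC, a ratio of 0.46, or 0.06 without shFTO replicate 2. The CDS peak of MRPL16 was next with a ratio of 0.43 and no overlap. MRPL30 had a 3′UTR peak at 1.90 and 1.88 in shFTO, against 1.92 and 1.20 in shNC, a ratio of 0.33 with overlap. Its start codon peak was lower in both shFTO libraries, at 1.95 and 1.72, against 2.33 and 2.02 in shNC.

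Of the peaks whose libraries did not overlap, most differed little. MRPL44, which carries a ribonuclease III-like fold, had a CDS peak at 1.89 and 1.82 in shFTO, against 1.53 and 1.58 in shNC, a ratio of 0.30. MRPL46, of the central protuberance, had a stop codon peak at 2.13 and 1.91 in shFTO, against 1.71 and 1.89 in shNC. MRPS2, at the body and head of the small subunit, had a 3′UTR peak at 1.20 and 1.16 in shFTO, against 1.45 and 1.53 in shNC, a ratio of -0.30. These ratios were about the size of their standard errors, which were 0.28 to 0.29.

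The vertebrate genome has 3 copies of the bacterial S18 protein, of which MRPS18A sits in the large subunit. MRPS18A had 1 peak in the 3′UTR, at 1.85 and 2.14 in shFTO, against 2.14 and 2.07 in shNC. MRPS18B had a start codon peak at 1.20 and 1.38 in shFTO, against 1.28 and 1.31 in shNC, and a stop codon peak at 1.04 and 1.38 in shFTO, against 1.10 and 1.47 in shNC. MRPS18C had a start codon peak at 1.70 and 1.90 in shFTO, against 2.74 and 1.68 in shNC. Groups overlapped in all 4 peaks, with ratios of -0.11 for MRPS18A, 0.00 and -0.07 for MRPS18B and -0.41 for MRPS18C.

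Some peaks did not pair 1 to 1 under the rule of at least 1 nt of overlap. Under each of the other overlap rules the family had 67 pairs, against 64 here. MRPL45, which tethers the ribosome at the exit tunnel to the inner membrane, had 3 adjoining peaks in shFTO, at nt 964 to 1106, 1107 to 1486 and 1487 to 1587, over 1 peak at nt 1038 to 1499 in shNC. The middle one scored 3.51 and 3.48 in shFTO, against 3.28 and 2.72 for the shNC peak, and those beside it 2.47 and 2.73, and 2.71 and 2.49. Since 3 peaks met 1, no ratio was formed. MRPS16, a small-subunit protein, had 3 peaks in each list, of which the stop codon peak and the 3′UTR peak beside it adjoin. That 3′UTR peak scored 1.78 and 1.36 in shFTO, against 1.60 and 1.52 in shNC. The distal 3′UTR peak, at nt 2209 to 2447 in both lists, did pair. It scored 1.94 and 1.15 in shFTO, against 1.67 and 1.02 in shNC, a log2 ratio of 0.20 with overlap.

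Genes listed in 1 group only had scores near the threshold of 1, with 1 exception. In shFTO only, MRPL14 had a stop codon peak at 1.03 and 1.02, and MRPL21 a 5′UTR peak at 1.05 and 0.80. MRPL19 had a start codon peak at 1.97 and 2.44, with 1 GGACU, and a stop codon peak at 2.03 and 1.26, both in shFTO only. In shNC only, MRPL28 had a start codon peak at 1.19 and 0.88, MRPL4 a 3′UTR peak at 1.37 and 0.93, and MRPS11 a stop codon peak at 1.06 and 1.03. Within genes of both lists, MRPS10 had a CDS peak at 0.78 and 0.87 in shFTO only and a 3′UTR peak at 1.13 and 0.81 in shNC only. MRPS35 had a CDS peak at 1.20 and 1.94, and MRPS5 a stop codon peak at 0.99 and 1.68, both in shNC only. Presence in a list has no replicate of its own, and a score in the other group is not given for these places.

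Other genes of mitochondrial translation were compared in the same way. Of 72 genes for subunits with other symbols, translation factors, assembly and rRNA factors and aminoacyl-tRNA synthetases, 57 had a peak in both lists and 52 could be compared, in 71 pairs. None passed the adjusted test, 1 of the 71 pairs was higher (against 2.30% of all pairs) and 4 were lower (against 3.68%) at an unadjusted p under 0.05, and the median ratio of the best pair per gene was 0.03, with 29 of 52 above 0. Among the best pairs the lowest ratio was that of PTCD3, a pentatricopeptide repeat protein of the small subunit. Its start codon peak scored 2.09 and 2.73 in shFTO, against 3.53 and 3.03 in shNC (log2 ratio -0.87, adjusted p = 0.777 from limma). RMND1, needed for mitochondrial translation, had a CDS peak at 1.75 and 1.44 in shFTO, against 2.39 and 2.39 in shNC (log2 ratio -0.79, adjusted p = 0.744 from limma). In neither gene did the groups overlap. NSUN4, an rRNA methyltransferase that helps join the subunits, had a stop codon peak at 2.49 and 1.59 in shFTO, against 2.49 and 2.69 in shNC, with a ratio of -0.55.

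The best pairs with the largest ratios were higher in both shFTO libraries. They were those of DDX28, an RNA helicase of large-subunit assembly, MTFMT, which formylates the initiator tRNA, and MTIF2, the initiation factor that binds it. DDX28 had a CDS peak at 2.75 and 2.96 in shFTO, against 2.08 and 2.16 in shNC (log2 ratio 0.73, adjusted p = 0.767 from limma). MTFMT scored 2.77 and 2.39 in shFTO, against 1.56 and 2.18 in shNC (log2 ratio 0.71, adjusted p = 0.833 from limma). MTIF2 scored 1.86 and 1.68 in shFTO, against 1.04 and 1.38 in shNC (log2 ratio 0.57, adjusted p = 0.876 from limma). By list, the median ratio of best pairs was -0.26 over 3 subunits with other symbols, -0.06 over 13 translation factors, 0.04 over 23 assembly and rRNA factors and 0.03 over 13 aminoacyl-tRNA synthetases.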

How the data were processed

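m6A-seq of Mel624 cells with shFTO or shNC, 2 replicates each, was used as the authors' peak lists. Per the submitters' notes and the study's methods, adapters were removed with cutadapt and reads aligned to hg38 with TopHat2 2.0.14, windows on the longest RefSeq isoform were tested for IP over input, and passing windows were merged. The deposited log2 enrichment scores set a peak against the median window of its own mRNA, so they carry neither library size nor expression level. How the authors made 1 list from 2 replicates is not stated in the sources used.

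The family was taken by gene symbol. Peaks of the lists that overlapped 1 to 1 by at least 1 nt were compared with limma 3.58.1 in R 4.3.3 (lmFit and eBayes, group only), adjusted over all 12117 pairs. The fit was tried on simulated data, but only with shifts larger than any ratio of the family. Counts, medians and exact intervals (95%) were made in Python 3.11.15. GGACU positions, as deposited, were matched to GENCODE release 44 transcripts. Named genes were the 8 highest, the 6 largest and 6 smallest ratios, and those at an unadjusted p under 0.05. Genes in 1 list only, with 3 or more peaks or with 2 or more GGACU in a peak were also named. So were the MRPS18 paralogs and the genes with no row. From the pathway lists came the 3 largest and 3 smallest ratios, taken over the best pair of each gene. Other genes were named after their values were seen. The family, the lists and the rules were chosen with earlier results of these data known. Alternatives were other overlap rules, a mean score of at least 2, 1 pair per gene, centring, a replicate block and leaving out each replicate. Whether same-numbered replicates of the groups were handled together is not stated.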

Additional observations from a re-analysis of the deposited data

How the results depend on the processing

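No peak of the family passed an adjusted p of 0.05 in limma under any alternative tried, and the median log2 ratio of the tested peaks stayed between -0.04 and 0.03. Keeping peaks with a mean log2 score of at least 2 left 24 genes with a peak in shFTO, 27 in shNC and 22 in both, with 28 peaks in shFTO and 30 in shNC, of which 26 and 24 overlapped. Counting GGACU only within 50 nt of the peak centre gave 21.6% of peaks in shFTO and 21.9% in shNC, against 18.9% and 18.2% over all peaks. When each library was left out in turn, the count of peaks at an unadjusted p under 0.05 ran from 0 to 1 higher and from 1 to 4 lower in shFTO, with 1 lower without shFTO replicate 2, and limma called 0 to 11 of all pairs. For a named peak, the other overlap rules, the replicate block and a mean score of at least 2 use the same scores and leave its ratio unchanged. Centring moves all ratios by the same small amount, so only leaving out a library could test the sign. Some of the named peaks were chosen for the size of their ratio. Of 18 named peaks, 12 kept their sign with each library left out in turn. The other 6 turned when 1 library was left out, with ratios of -0.27 to 0.09 for MRPL10, -0.03 to 0.69 for the MRPL30 3′UTR, -0.10 to 0.26 for the MRPL35 3′UTR, -0.01 to 0.62 for the MRPS12 3′UTR, -0.67 to 0.12 for the MRPS27 stop codon and -0.24 to 0.16 for MRPS9. A group left with 1 library is assumed in these fits to vary like the other.

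Replicate 1 minus replicate 2 in shFTO against the same in shNC correlated across the 12117 pairs with r = -0.27. The differences thus did not run the same way in same-numbered libraries, and whether any libraries were paired cannot be told from this. With the replicate number as a block, 0 peaks passed and 2 were lower at an unadjusted p under 0.05. With the crossed pairing, added after the data were seen, 0 peaks of the family and 13 of all pairs passed, and 1 peak of the family was higher and 4 were lower at an unadjusted p under 0.05. The lists give no depth, so scores near 1 cannot be weighed by their reads.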
